A study of Mus musculus with 40 samples.

Results

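The genes described here encode the machinery that moves aquaporin-2, the vasopressin-regulated water channel of the kidney collecting duct, to and from the apical membrane. They were chosen by name as 43 SNAREs, Rab GTPases, myosins, protein kinase A anchoring proteins (AKAPs), endocytic proteins and actin linkers reported in aquaporin-2 trafficking, with no measured value in the rule. Of these, 42 were matched to a row among the 55414 genes of the table, Lip5 through its RefSeq synonym as the row Vta1, and Vamp7 was not analysed here. RNA was sequenced from mpkCCD cells, an immortalized mouse collecting duct line, grown polarized on permeable supports. All groups, controls included, had received 0.1 nM dDAVP, a synthetic vasopressin analogue acting on the V2 receptor, for 72 hours. The 22 libraries analysed comprised 11 from clones left unmodified (control clones), 5 with the label ATF1-KO (here the single knockout), 3 with ATF1/CREB1-KO (the double) and 3 with ATF1/CREB1/CREM-KO (the triple). No label states whether libraries of 1 knockout come from separate clones, so p-values measure only the spread between these libraries. The 18 libraries of the labels' rescue experiment were not analysed here. Each knockout was compared with the control clones in the same consecutive run of library numbers: control clones 1 to 5 with the single knockout (run 1), 6 to 8 with the double (run 2) and 9 to 11 with the triple (run 3). The labels give no batch.

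Principal cells keep aquaporin-2 in vesicles beneath the apical membrane. Vasopressin raises cyclic AMP, protein kinase A held near the vesicles by AKAPs phosphorylates the channel, and the vesicles move along actin and microtubules and fuse with the apical membrane through SNARE proteins. When vasopressin is withdrawn, the channel is taken back by clathrin-mediated endocytosis and either recycled through Rab11-positive endosomes or sent to lysosomes. The same cyclic AMP signal acts on transcription factors of the CREB family, of which ATF1, CREB1 and CREM are the members. The comparison asked whether transcripts of the machinery stay when Aqp2 itself is lost.

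Values are TPM, a transcript abundance scaled to 1 total in every library and corrected for transcript length, which allows levels to be compared between genes but keeps no record of sequencing depth. Log2 changes were taken on log2(TPM + 1), a scale that understates the change of low genes, and are given with their standard error (SE). They were tested with limma, and a gene was called where the Benjamini-Hochberg adjusted p over all genes tested was under 0.05. In bulk RNA, fewer cells of a type and less RNA per cell cannot be told apart.

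Each library had 17296 to 20703 genes above 0. Libraries of run 2 stood apart: 89 ribosomal protein genes took 7.21% to 15.3% of their TPM, against 2.69% to 4.15% in the 16 others, and within run 2 replicate 3 of the double knockout had the 7.21%. Atf1 lay at 37.8 to 49.0 TPM in control clones 1 to 5 and 17.5 to 37.8 in the single knockout. It lay at 23.3 to 26.2 against 15.1 to 23.7 in run 2 and at 39.8 to 40.5 against 23.7 to 40.8 in run 3. Creb1 lay at 4.98 to 6.69 TPM in control clones 6 to 8 and 2.72 to 3.86 in the double knockout, and at 35.9 to 39.0 against 18.2 to 19.4 in run 3. Crem was not lower in the triple knockout, at 26.0 to 33.8 TPM against 20.0 to 24.9. Family members outside the label also differed. Crem lay at 15.5 to 46.5 TPM in the double knockout against 9.08 to 13.0 in its control clones. In the single knockout Creb1 lay at 36.7 to 40.2 TPM against 28.0 to 34.3, and Crem at 18.8 to 27.5 against 13.6 to 24.6, which overlapped. Which part of each gene was edited is not given in the sources used here, so these levels do not check the labels. Of 14 genes listed as principal cell markers, 11 had a median of at least 1 TPM, with Elf5, Aqp4 and Scnn1b below it. The highest medians were those of Krt18 (3989 TPM), Krt8 (1237 TPM), Aqp2 (1018 TPM) and Cdh1 (748 TPM). Krt18, Krt8 and Cdh1 are general epithelial genes, so a sum over the list does not measure principal cell identity alone. Summed, Aqp2 included, the 14 genes ran from 7599 to 10644 TPM in control clones 9 to 11 and from 5949 to 6754 TPM in the triple knockout. In runs 1 and 2 the sums of knockout and control libraries overlapped. In the triple knockout Aqp2 and Krt8 (log2 change -0.60) were called lower and Cdh1 (0.61) higher, and the others tested were not called. Of 7 intercalated cell markers, Foxi1, Slc4a1, Slc26a4, Atp6v0d2 and Atp6v1g3 did not exceed 0.2 TPM in any library, Atp6v1b1 had a median of 34.1 TPM (14.4 to 103), and Aqp6 had a median of 7.58 TPM and fell in the triple knockout (log2 change -2.21). Their sum ran from 89.3 to 114 TPM in control clones 9 to 11 and from 68.2 to 102 TPM in the triple knockout, and from 18.6 to 58.1 TPM in the libraries of runs 1 and 2. Summed fibroblast and endothelial markers did not exceed 1.95 and 0.52 TPM. Summed proximal tubule and leukocyte markers reached at most 25.6 and 13.6 TPM. The leukocyte marker Cd68 was called lower in the triple knockout (log2 change -1.04).

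Aqp2, the cargo, fell in the triple knockout and not by the test in the others. It was listed at 15.1, 16.1 and 15.3 TPM in the triple knockout and at 1627, 641 and 2279 TPM in control clones 9 to 11, a log2 change of -6.34 ± 0.426 (SE, adjusted p = 8.60e-04 by limma). The groups did not overlap, and the knockout mean was 1.02% of the control mean. The log2 change was 0.56 ± 0.238 (SE, adjusted p = 0.638 by limma) in the single knockout and -0.36 ± 0.371 (SE, adjusted p = 0.775 by limma) in the double.

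All 42 trafficking genes were expressed in the control clones. Over the 8 control clones of runs 1 and 3, 2 genes had a mean of at least 1000 TPM, 22 lay between 100 and 1000, 17 between 10 and 100, and 1 below 10. The most abundant were Mal2, which encodes a transmembrane protein of apical delivery, at a mean of 1437 TPM (lowest 1134, highest 1756), and Hspa8, the heat shock cognate that strips clathrin from vesicles, at 1196 TPM (lowest 1077, highest 1413). Their ranges overlapped. How reads were shared between Hspa8 and its near-identical processed copies is not given in the sources used here. Anxa2 (695 TPM), Ezr (558 TPM), Anxa4 (441 TPM) and Vamp8 (378 TPM) followed. The range of Anxa2 lay below that of Hspa8, and the ranges of the other neighbours in that order overlapped. Anxa2 and Anxa4 are calcium-dependent membrane-binding annexins, Ezr encodes ezrin, which links membranes to actin, and Vamp8 is a vesicle SNARE. The 2 lowest were Rab27a, a GTPase of secretory vesicle docking, at 10.6 TPM (lowest 8.97, highest 13.5) and Rab11fip2, an effector that couples Rab11 to myosin Vb, at 1.82 TPM (lowest 1.47, highest 2.25), and these did not overlap.

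**Figure D1:**
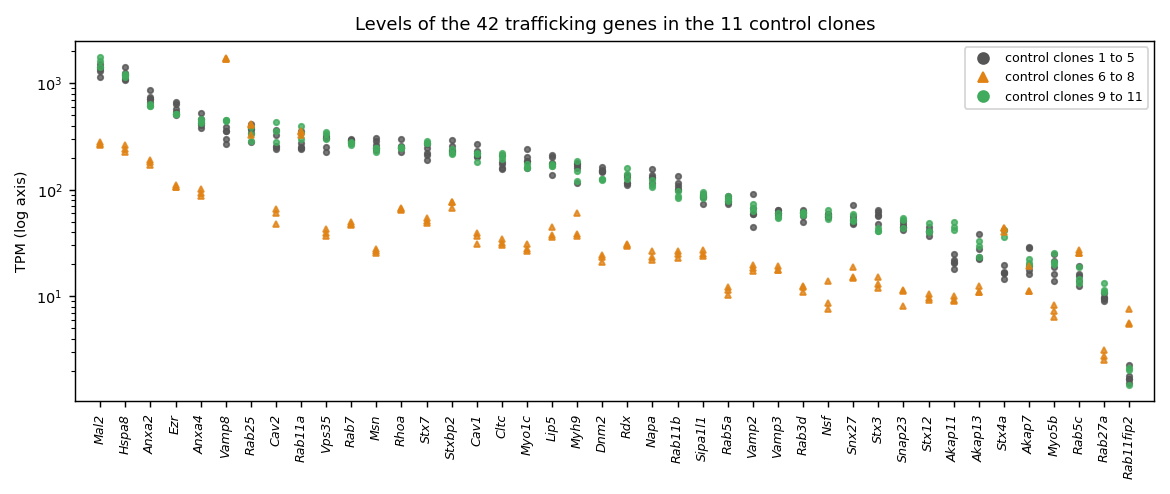
TPM (log axis) of the 42 trafficking genes in each of the 11 control clones, ordered by their mean over control clones 1 to 5 and 9 to 11 (circles), with control clones 6 to 8 as triangles. Most triangles lie below the circles, while those of Vamp8, Rab5c and Rab11fip2 lie above all of them.

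Within families the levels in the control clones of runs 1 and 3 were unequal. Among vesicle SNAREs, Vamp8 at 378 TPM lay above Vamp2 (65.8 TPM) and Vamp3 (59.6 TPM). Among target SNAREs, Stx7, a syntaxin of late endosomes, lay at 247 TPM, above Stx3 (51.5 TPM), Snap23 (47.3 TPM), Stx12 (41.8 TPM) and Stx4a (25.5 TPM). Stx3 and Stx4a encode the plasma membrane syntaxins 3 and 4, and Snap23 their SNAP-25-like partner. The Rab11 subfamily of recycling endosomes was led by Rab25 (348 TPM) and Rab11a (301 TPM), with Rab11b at 104 TPM, and Rab5a (80.9 TPM) of early endosomes lay above its paralogue Rab5c (15.5 TPM), an order that reversed in control clones 6 to 8 (10.2 to 12.2 TPM for Rab5a and 25.5 to 27.3 TPM for Rab5c). Stx4a differed between runs, from 14.5 to 19.7 TPM in control clones 1 to 5 and from 35.9 to 42.2 TPM in control clones 9 to 11. Akap11 did too, from 18.2 to 24.8 TPM in the former and from 41.6 to 49.4 TPM in the latter.

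The control clones of run 2 held less of most of these transcripts. Summed over the 42 genes, control clones 1 to 5 had 9338 ± 255 TPM (SD, n = 5), control clones 9 to 11 had 9597 ± 238 TPM (SD, n = 3) and control clones 6 to 8 had 4233 ± 35.0 TPM (SD, n = 3). In 35 genes all 3 control clones of run 2 lay below the other 8, and in 4 (Stx4a, Rab11a, Rab25 and Akap7) the ranges overlapped. The other 3 lay above. Vamp8 lay at 1735, 1672 and 1689 TPM in run 2, Rab5c at 25.8, 27.3 and 25.5 TPM, and Rab11fip2 at 5.52, 7.52 and 5.62 TPM. The ribosomal protein share above moved with these differences, and its part in them was not tested. Results below are therefore given against control clones of the same run.

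In the single knockout none of the 42 genes was called, beside 0% of the 13318 genes tested. Their log2 changes had a median of -0.04 and ran from -0.42 to 0.27, all within 0.5 on the log2 scale. Over all genes the median was 0.00 and 93.6% were within 0.5. At an unadjusted p under 0.05, Msn and Anxa2 were higher and Stx7, Myo5b and Mal2 lower, 5 of 42 (11.9%) beside 7.61% of all genes. The 95% interval of the change lay within 1 log2 unit of 0 for all 42 genes and for 90.4% of all genes. Summed over the 42 genes, the level was 9080 ± 308 TPM (SD, n = 5), against 9338 in the control clones.

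Stx7 was the only one of the 42 whose single knockout and control libraries did not overlap, beside 1.3% of all genes. It lay at 169, 179, 182, 161 and 179 TPM in the single knockout and at 211, 191, 247, 270 and 222 TPM in control clones 1 to 5. All 5 knockout libraries were below the lowest control clone, and the log2 change of -0.38 ± 0.0901 (SE) did not pass the test (adjusted p = 0.514 by limma). With the median of its chromosome in each library subtracted, an alternative chosen after the data were seen, it was -0.34 (adjusted p = 0.304 by limma). Msn, which encodes moesin, a relative of ezrin, had a log2 change of 0.27 ± 0.0972 (SE, adjusted p = 0.618 by limma), and its libraries overlapped with the control clones.

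In the double knockout none of the 42 genes was called, beside 0.0715% of the 12579 genes tested. The median log2 change was 0.06, with a range of -1.14 to 0.75, and over all genes the median was -0.03. At an unadjusted p under 0.05, Rab11a and Mal2 were higher and Rab27a was lower, 3 of 42 (7.14%) beside 9.53% of all genes. The spread was wide: the 95% interval of the change lay within 1 log2 unit of 0 for 25 of the 42 genes (59.5%, beside 59.3% of all genes). Replicate 3 of the double knockout stood apart. Its summed level was 5828 TPM, against 4270 and 4161 in replicates 1 and 2 and 4198 to 4268 in control clones 6 to 8. Anxa2, for example, lay at 159, 204 and 719 TPM in replicates 1 to 3, and Lip5, an activator of the endosomal ATPase VPS4, at 29.2, 33.4 and 164 TPM. Without replicate 3 no member was called, and the median was -0.10 for the members and for all genes. Its low ribosomal protein share moved with these levels, and the part of that in them was not tested.

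In 9 of the 42 genes the double knockout libraries did not overlap with control clones 6 to 8, 6 higher and 3 lower, beside 19% of all genes. Those with a log2 change of at least 0.5 in size were Rab5a, Rab11a, Rab11b, Rab27a and Mal2. Rab27a lay at 0.77, 0.98 and 0.44 TPM in the double knockout and at 3.12, 2.75 and 2.52 TPM in the control clones. All 3 were below every control clone, at a level near 1 TPM, and the log2 change was -1.14 ± 0.237 (SE, adjusted p = 0.237 by limma). In a fit of all 22 libraries together, with run as a covariate and 1 shared estimate of the spread, the adjusted p by limma was 7.12e-05.

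Rab11a, which marks the recycling endosomes that hold aquaporin-2, lay at 467, 459 and 790 TPM in the double knockout and at 329, 358 and 348 TPM in the control clones. All 3 knockout libraries were higher, replicate 3 the most, with a log2 change of 0.68 ± 0.248 (SE, adjusted p = 0.480 by limma), or 0.42 without replicate 3. Mal2 lay at 505, 306 and 571 TPM against 281, 270 and 262 TPM. All 3 knockout libraries were again higher, and the log2 change was 0.71 ± 0.260 (SE, adjusted p = 0.480 by limma), or 0.54 without replicate 3.

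Rab5a lay at 13.7, 15.5 and 35.3 TPM in the double knockout and at 12.2, 11.4 and 10.2 TPM in the control clones, a log2 change of 0.75 ± 0.348 (SE, adjusted p = 0.556 by limma). Rab11b lay at 27.6, 30.6 and 53.3 TPM against 22.8, 26.8 and 25.03 TPM, a log2 change of 0.50 ± 0.278 (SE, adjusted p = 0.617 by limma). In both genes replicates 1 and 2 were close to the control clones and replicate 3 was far above them. Without replicate 3 their log2 changes were 0.35 and 0.22.

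In the triple knockout, where Aqp2 was lost, 7 of the 42 genes were called, 4 higher and 3 lower (16.7%, beside 9.17% of the 13258 genes tested). Napa, Rab3d, Rab11a and Anxa2 rose, and Stx7, Rab27a and Mal2 fell. The median log2 change of the 42 was 0.02, beside -0.05 over all genes, with 21 genes above 0 and 21 below. The changes ran from -1.25 to 0.95, and 35 genes (83.3%) were within 0.5 on the log2 scale, beside 79.3% of all genes. The 95% interval lay within 1 log2 unit of 0 for 39 of the 42 (92.9%, beside 76.1% of all genes). Those figures set a bound on the change of each gene and do not show that it was 0. Here and in the other comparisons the shares of all genes were not matched for level. All genes take in every gene averaging 1 TPM or more, while all but 1 of the 42 averaged at least 10 TPM in control clones of runs 1 and 3. At an unadjusted p under 0.05, 13 of the 42 passed (31.0%, beside 27.0% of all genes), and in 17 the groups did not overlap (9 higher, 8 lower), beside 34.6% of all genes. Summed over the 42 genes, the level was 9515 ± 283 TPM (SD, n = 3) against 9597 ± 238 (SD, n = 3) in control clones 9 to 11, ranges that overlapped.

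The count of calls rested on single libraries. Without control clone 9 none was called (1.40% of all genes), and without control clone 10 there were 3 (3.70% of all genes). Without control clone 11, triple replicate 2 or triple replicate 3 there were 2 each, beside 2.12%, 2.59% and 3.07% of all genes. Without triple replicate 1 there were 14, among them all 7, beside 25.1% of all genes. Fits without it, here and below, rest on triple replicates 2 and 3. Those had like median log2 differences from the control mean over chromosome 14 (-0.52 and -0.50) and chromosome 18 (0.47 in both). Replicate 1 had -0.03 and 0.04. Whether replicates 2 and 3 are separate clones is not given. Small p-values from these fits therefore cannot be read as agreement between separate clones. With no filter on low values, 2 of the 7 were called (Stx7 and Rab27a), beside 2.98% of all genes.

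**Figure D2:**
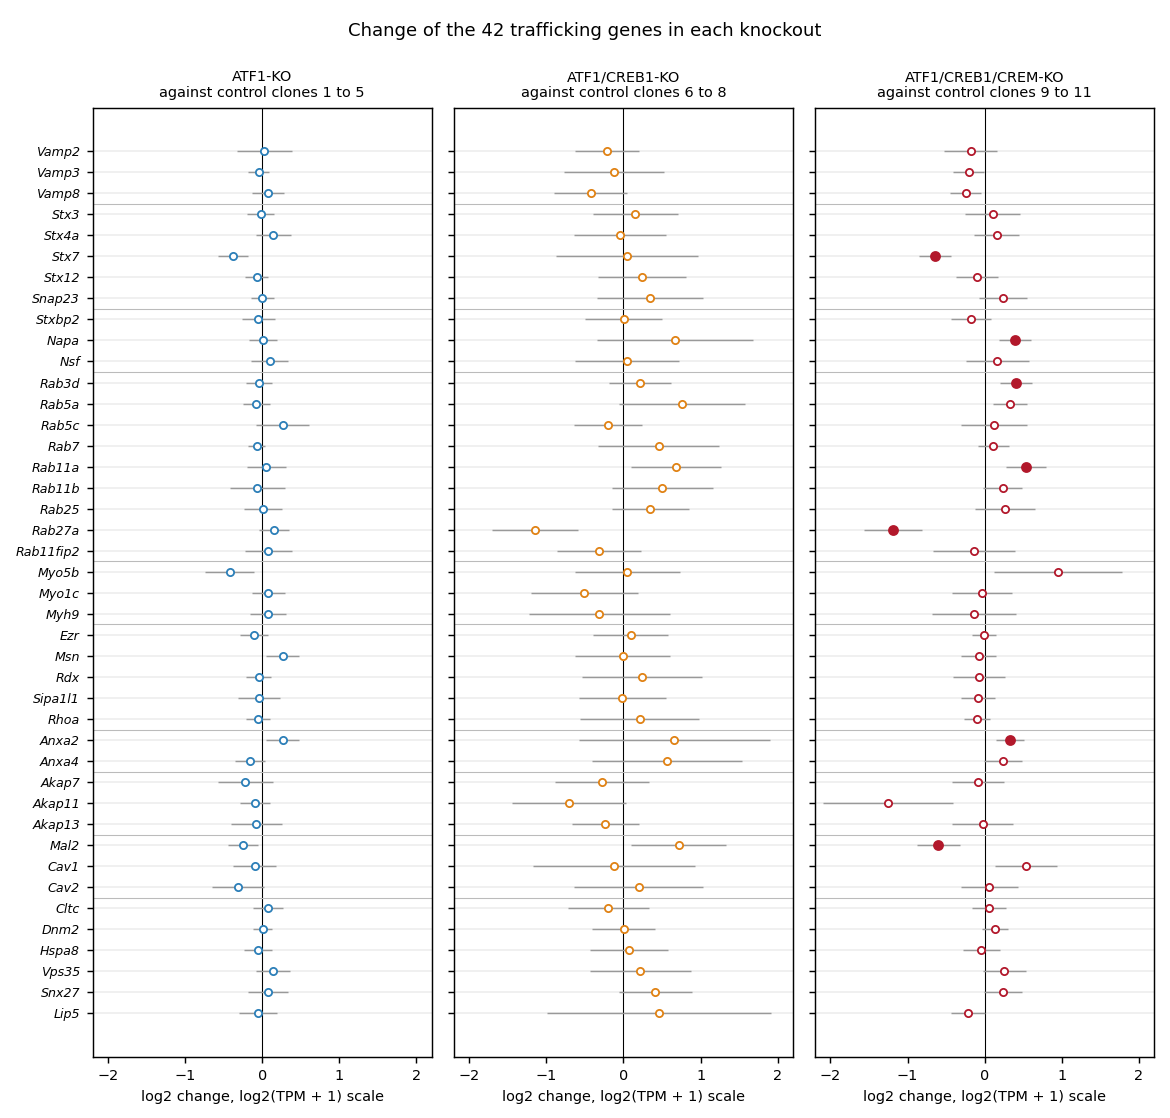
Log2 change on the log2(TPM + 1) scale of the 42 trafficking genes in each knockout relative to its own-run control clones, with 95% intervals from limma. Filled points passed the adjusted test, and grey lines separate the roles in the order vesicle SNAREs, target SNAREs, SNARE cofactors, Rabs, myosins, actin linkers, annexins, AKAPs, apical delivery and caveolae, and endocytosis. Filled points occur in the triple knockout only, 4 to the right of 0 and 3 to the left. The median standard error of the 42 changes is 0.0959 in the single, 0.261 in the double and 0.112 in the triple knockout.

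Of the SNAREs, 1 of 8 was called, and it was lower. Stx7 lay at 161, 180 and 191 TPM in the triple knockout and at 285, 273 and 275 TPM in control clones 9 to 11. The knockout libraries were all below the control clones, and the log2 change was -0.64 ± 0.0865 (SE, adjusted p = 0.0092 by limma). The 12 alternatives counted here and below include the fit with run as a covariate and leave out the comparison with all 11 control clones. Stx7 was called in 9 of them. The call was lost without control clone 9 (adjusted p = 0.0628) or 11 (adjusted p = 0.0510), and in the fit with run as a covariate, at an adjusted p of 0.111. The 3 vesicle SNAREs measured, Vamp2, Vamp3 and Vamp8, had log2 changes of -0.18, -0.21 and -0.25, and none was called. In 2 of the 3, Vamp3 and Vamp8, all knockout libraries lay below the control clones, beside 34.6% of all genes with groups that did not overlap. Both had an unadjusted p under 0.05, with adjusted p of 0.178 for Vamp3 and 0.119 for Vamp8 by limma. Stx3, Stx4a, Stx12 and Snap23 ran from -0.10 to 0.24.

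Of the 3 SNARE cofactors, Napa rose. It encodes alpha-SNAP, which recruits the ATPase NSF to take spent SNARE complexes apart. Napa lay at 153, 151 and 145 TPM in the triple knockout and at 107, 125 and 110 TPM in the control clones. The groups did not overlap, and the log2 change was 0.39 ± 0.0860 (SE, adjusted p = 0.0385 by limma). It was called in 6 of the 12 alternatives, and its adjusted p by limma was 0.416 in the fit with run as a covariate. Nsf had a log2 change of 0.16 ± 0.170 (SE), and Stxbp2, a Munc18 protein that binds syntaxins, one of -0.18 ± 0.110 (SE).

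Of 8 Rab GTPases and the effector Rab11fip2, Rab3d and Rab11a rose and Rab27a fell. Rab27a lay at 3.98, 5.37 and 4.72 TPM in the triple knockout and at 11.4, 13.5 and 11.1 TPM in the control clones. The highest knockout library was below the lowest control clone by a wide gap, with a log2 change of -1.19 ± 0.157 (SE, adjusted p = 0.0089 by limma). It was called in 11 of the 12 alternatives, and its adjusted p was 0.0543 without control clone 9.

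Rab11a lay at 499, 496 and 487 TPM in the triple knockout and at 337, 299 and 395 TPM in control clones 9 to 11. The 3 knockout libraries were close together and above every control clone, and the log2 change was 0.53 ± 0.110 (SE, adjusted p = 0.0332 by limma). It was called in 6 of the 12 alternatives, and its adjusted p by limma was 0.0795 in the fit with run as a covariate. Rab3d, a GTPase of regulated secretory vesicles, lay at 86.9, 78.1 and 74.6 TPM against 58.0, 60.1 and 61.8 TPM. These groups did not overlap either, and the log2 change was 0.41 ± 0.0891 (SE, adjusted p = 0.0393 by limma), called in 6 of 12 alternatives.

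The other Rab genes were not called. Rab5a lay at 111, 95.9 and 104 TPM against 87.4, 81.6 and 78.2 TPM, groups that did not overlap, with a log2 change of 0.33 ± 0.0910 (SE, adjusted p = 0.0711 by limma). Rab11b had a log2 change of 0.23 ± 0.106 (SE), Rab25 one of 0.26 ± 0.164, Rab7, the GTPase of late endosomes, one of 0.11 ± 0.0853, and Rab5c one of 0.12 ± 0.180. Rab11fip2 had one of -0.14 ± 0.221 at a level of 1.27 to 2.13 TPM.

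**Figure D3:**
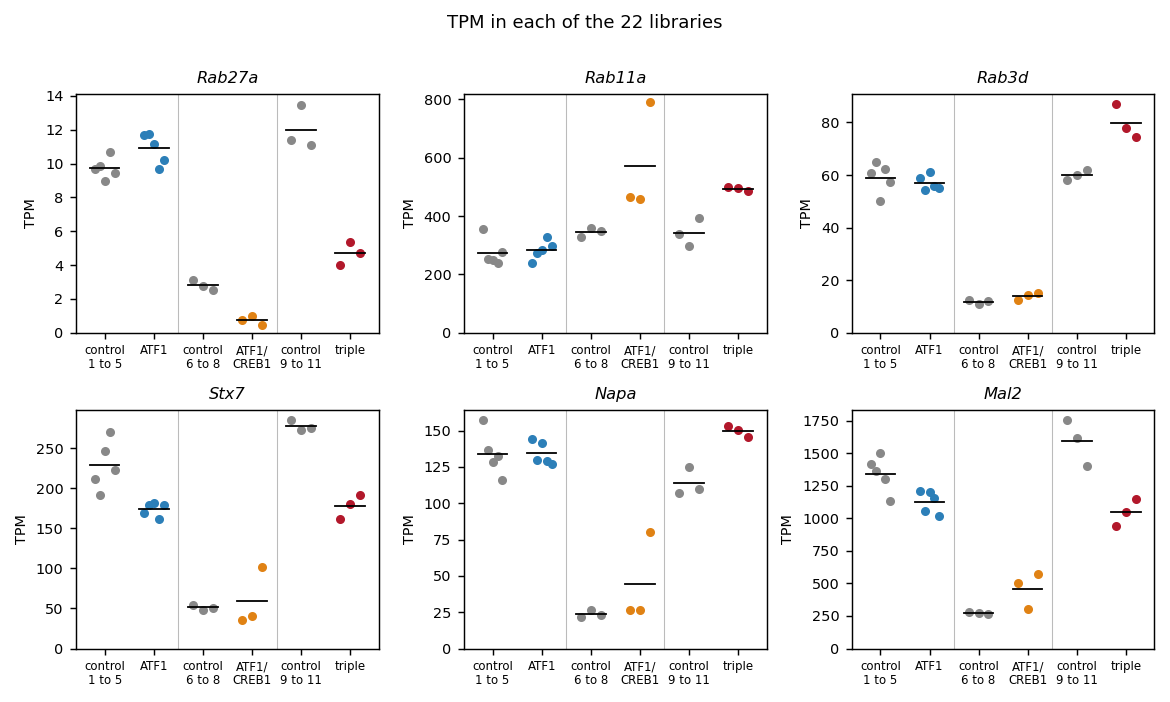
TPM of 6 trafficking genes in each of the 22 libraries, by run and label, each point 1 library and each line a group mean. In the triple knockout Rab27a, Stx7 and Mal2 lie below control clones 9 to 11 and Rab11a, Rab3d and Napa above them, while Mal2 in the double knockout lies above control clones 6 to 8.

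Anxa2 rose, and Mal2 fell. Anxa2 lay at 738, 822 and 781 TPM in the triple knockout and at 613, 610 and 640 TPM in the control clones. The groups did not overlap, and the log2 change was 0.33 ± 0.0749 (SE, adjusted p = 0.0435 by limma), called in 5 of the 12 alternatives. In the fit with run as a covariate its adjusted p by limma was 0.626. Anxa4 had a log2 change of 0.23 ± 0.103 (SE) and was not called. Mal2 lay at 941, 1052 and 1148 TPM against 1756, 1620 and 1405 TPM. All 3 knockout libraries were lower, and the log2 change was -0.60 ± 0.117 (SE, adjusted p = 0.0277 by limma), called in 6 of 12 alternatives.

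Of the caveolar genes, Cav1 lay at 232, 340 and 338 TPM in the triple knockout and at 222, 182 and 218 TPM in the control clones. Replicate 1 was just above the highest control clone and the others were well above it. The log2 change was 0.53 ± 0.169 (SE, adjusted p = 0.101 by limma), and without replicate 1 it was 0.71 (adjusted p = 0.0039). Cav2 had a log2 change of 0.06 ± 0.155 (SE).

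No actin linker, myosin, AKAP or endocytic gene was called, beside 9.17% of all genes. Ezr, Msn, Rdx, Rhoa and Sipa1l1, the linkers and regulators of cortical actin, had log2 changes from -0.10 to -0.01. Ezr, for instance, lay at 497, 521 and 512 TPM in the triple knockout and at 516, 513 and 513 TPM in the control clones. Of the endocytic and retrieval genes, Cltc (clathrin heavy chain), Dnm2 (dynamin 2) and Hspa8 had log2 changes of 0.05, 0.13 and -0.04. Vps35, of the retromer, and its partner Snx27 had 0.26 and 0.24, and Lip5 -0.21. In 4 of these 6 genes the groups did not overlap, beside 34.6% of all genes. Dnm2, Vps35 and Snx27 lay higher and Lip5 lower, and none of the 6 had an unadjusted p under 0.05. Among the 5 linkers and regulators of actin only Rhoa did not overlap with its control clones, and it was lower.

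Akap11 and Myo5b had large log2 changes and were not called against own-run control clones. In the fit with run as a covariate both were called, with an adjusted p by limma of 0.0075 for Akap11 and 0.0491 for Myo5b. Their knockout libraries differed among themselves. Akap11, an anchor for protein kinase A, lay at 34.8, 13.7 and 12.8 TPM in triple replicates 1 to 3 and at 49.4, 41.6 and 44.8 TPM in control clones 9 to 11, a log2 change of -1.25 ± 0.356 (SE, adjusted p = 0.0764 by limma). Replicate 1 was nearer to the control clones than the other replicates were. Without it the log2 change was -1.70 (adjusted p = 3.13e-04). In the double knockout Akap11 lay at 9.56, 3.71 and 4.28 TPM against 10.1, 9.12 and 9.17 TPM, where replicate 1 lay among the control clones.

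Myo5b encodes myosin Vb, the motor that carries Rab11 vesicles along actin. It lay at 23.6, 62.5 and 55.5 TPM in triple replicates 1 to 3 and at 25.3, 20.2 and 21.0 TPM in the control clones, a log2 change of 0.95 ± 0.349 (SE, adjusted p = 0.140 by limma). Replicate 1 lay among the control clones, and without it the log2 change was 1.38 (adjusted p = 9.92e-04). In the double knockout it lay at 5.92, 12.2 and 5.75 TPM against 8.27, 7.21 and 6.35 TPM, with replicate 2 alone above the control clones.

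The genes around them moved in the same libraries. In triple replicates 2 and 3 the median log2 difference from the own-run control mean over the 414 tested genes of chromosome 14, where Akap11 lies, was -0.52 and -0.50 relative to the median of each library, and in replicate 1 it was -0.03. In double replicates 2 and 3 it was -0.44 and -0.27, and in replicate 1 it was 0.04. Over the 315 tested genes of chromosome 18, where Myo5b lies, it was 0.47 in both triple replicates 2 and 3 and 0.04 in replicate 1, and in double replicate 2 it was 0.44. Chromosome 17, which carries Rab5a, Rab11b and Ezr, had medians of 0.28, 0.22 and 0.21 in the triple knockout and 0.36 in single replicate 1, where Rab11b lay at 163 TPM against 89.5 to 112 in the other 4. In double replicates 1 to 3 its medians were 0.32, 0.21 and 0.03, lowest in replicate 3, where Rab5a and Rab11b were highest. Ezr had a log2 change of -0.01 in the triple knockout. In triple replicate 1, chromosomes 8, 11 and 15, which also carry members (Mal2 on chromosome 15), had medians of 0.21, -0.26 and -0.27. Control clones had such medians too, each relative to the other control clones of its run. For chromosome 14 they were -0.28, 0.20, -0.27, 0.20 and 0.15 in control clones 1 to 5, and 0.02, 0.00 and -0.03 in control clones 9 to 11.

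Akap11 and Myo5b differed by more than these medians in the same libraries. Akap11 lay at log2 differences of -1.65 and -1.74 in triple replicates 2 and 3 and of -1.15 and -0.99 in double replicates 2 and 3, and Myo5b at 1.46 and 1.30 in triple replicates 2 and 3 and at 0.68 in double replicate 2. Rab5a lay at 0.43, 0.22 and 0.34 in the triple knockout. The part of the chromosome-wide difference in these results was not tested. With the chromosome median of each library subtracted, an alternative chosen after the data were seen, the log2 change in the triple knockout was -0.87 (adjusted p = 0.0627) for Akap11, 0.66 (adjusted p = 0.139) for Myo5b and 0.13 (adjusted p = 0.339) for Rab5a, and the same 7 genes were called as without it. Among the 7 the log2 change became smaller in size for Stx7 (-0.51), Mal2 (-0.49) and Rab27a (-1.15). It became larger for Napa (0.44), Rab3d (0.45), Rab11a (0.57) and Anxa2 (0.37). The median subtracted here was not set relative to the median of the library, so shifts common to a whole library were removed too. On chromosome 9, which carries Rab3d, Rab11a, Rab27a and Anxa2, the medians relative to the library were 0.02, -0.01 and -0.02 in triple replicates 1 to 3.

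**Figure D4:**
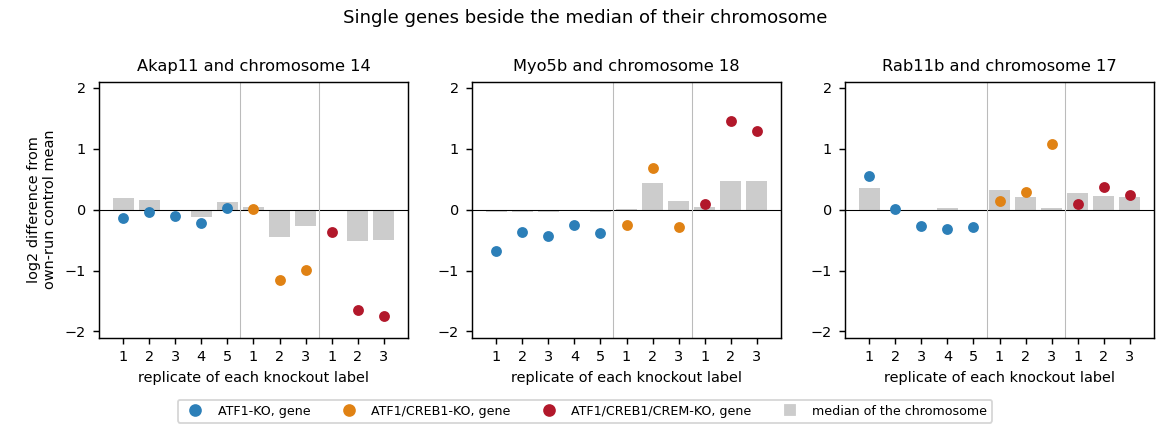
Log2 difference of 3 genes from their own-run control mean in each knockout library (points) beside the median of all tested genes on the same chromosome (grey bars, relative to the median of the library). Akap11 and chromosome 14 are low together in triple replicates 2 and 3 and double replicates 2 and 3, and Myo5b and chromosome 18 are high together in triple replicates 2 and 3 and double replicate 2.

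Whether the changes differed between knockouts was tested directly, in 1 fit over all 22 libraries. The 2 differences tested, triple less double and triple less single, both contain the triple knockout and control clones 9 to 11. Between the triple and the double, Mal2 was the 1 member of 42 called, beside 0.188% of 13295 genes, at a difference of -1.32 ± 0.240 (SE, adjusted p = 0.0294 by limma). It had fallen in the triple knockout and lain higher in all 3 double knockout libraries. The call was lost without control clone 6, 7, 8, 9 or 10, without triple replicate 2, with no filter on low values, and with chromosome medians subtracted. For Rab27a the same difference was -0.05 with a 95% interval of -0.46 to 0.36. That value holds on the log2(TPM + 1) scale, which understates changes of low genes, and Rab27a lay near 1 TPM in the double knockout. Over the 12 alternatives its log2 change ran from -1.86 to -1.01 in the double knockout and from -1.34 to -1.10 in the triple. Equal falls in the 2 knockouts are therefore not shown.

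Between the triple and the single knockout 2 of 42 were called, beside 3.57% of 13295 genes. Rab27a had a difference of -1.34 ± 0.174 (SE, adjusted p = 9.24e-05 by limma). It lay at 11.7, 11.8, 11.2, 9.67 and 10.2 TPM in the single knockout, overlapping with the 8.97 to 10.7 TPM of control clones 1 to 5, and was called in each alternative run. Myo5b had a difference of 1.37 ± 0.368 (SE, adjusted p = 0.0424 by limma). In the single knockout it lay at 11.3, 14.2, 13.6, 15.5 and 14.1 TPM against 24.97, 18.7, 21.4, 14.1 and 16.2 TPM, most libraries lower but overlapping. That call was lost without control clone 1, 2, 3, 9, 10 or 11, without any 1 of the 5 single knockout libraries, without triple replicate 2 or 3, with a pseudocount of 0.1 TPM, with no filter on low values and with median-ratio scaling. For Stx7, lower in both knockouts, the difference was -0.27 with a 95% interval of -0.90 to 0.37.

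Promoter sequences are shown for the called genes that hold the core of the cyclic AMP response element, the DNA element that CREB family proteins bind. The letters TGACG were searched on both strands (CGTCA on the other), with the full palindrome TGACGTCA, which contains both, in the 250 bases before each RefSeq start (GRCm38.p6). Of the 42 genes 35 had an entry. TGACG or CGTCA occurred in 14 of these (40.0%), beside 31.4% of 9531 genes tested in the triple knockout with an entry, and TGACGTCA in 2 (Rab25 and Rab5a, 5.71%), beside 3.12%. Over all 27025 genes with a promoter entry, tested here or not, the shares were 19.8% and 1.77%. Counted by window, TGACG or CGTCA occurred in 29.2% of the members' windows, beside 27.0% of those of tested genes, and TGACGTCA in 4.17% beside 2.57%. Of the called genes, Napa, Rab3d, Rab11a and a second start of Rab27a hold the 5 letters, in capitals below, each once. Anxa2, Stx7 and the first start of Rab27a have no match. Mal2 was not matched to an entry. These stretches are chr7:16098330-16098579 (plus strand) for Napa, chr9:21918184-21918433 (minus) for Rab3d, chr9:64737757-64738006 (minus) for Rab11a and chr9:73063898-73064147 (plus) for Rab27a.
Napa: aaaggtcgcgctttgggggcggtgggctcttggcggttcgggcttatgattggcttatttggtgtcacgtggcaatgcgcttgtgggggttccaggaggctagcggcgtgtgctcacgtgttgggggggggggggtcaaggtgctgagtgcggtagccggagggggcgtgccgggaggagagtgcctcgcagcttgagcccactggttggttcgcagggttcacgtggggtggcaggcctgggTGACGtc
Rab3d: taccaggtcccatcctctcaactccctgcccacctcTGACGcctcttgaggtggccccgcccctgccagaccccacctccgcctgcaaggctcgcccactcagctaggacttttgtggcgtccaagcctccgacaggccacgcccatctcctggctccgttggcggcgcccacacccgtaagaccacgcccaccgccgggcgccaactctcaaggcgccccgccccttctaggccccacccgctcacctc
Rab11a: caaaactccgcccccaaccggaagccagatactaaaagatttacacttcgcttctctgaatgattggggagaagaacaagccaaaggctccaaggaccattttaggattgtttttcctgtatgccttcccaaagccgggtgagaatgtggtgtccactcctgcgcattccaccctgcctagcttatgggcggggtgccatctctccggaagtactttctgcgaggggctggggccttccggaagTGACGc
Rab27a: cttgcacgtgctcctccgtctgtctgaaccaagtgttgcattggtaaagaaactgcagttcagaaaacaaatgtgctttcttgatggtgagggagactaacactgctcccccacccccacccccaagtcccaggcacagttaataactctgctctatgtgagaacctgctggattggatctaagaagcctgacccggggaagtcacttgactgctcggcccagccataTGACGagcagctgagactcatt

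The match begins 7 bases before the start in Napa, 6 in Rab11a, 22 in Rab27a and 214 in Rab3d. In Napa the letters run on across the start as TGACGTCA, which occurred at the start in 26 of the tested genes (0.273%). The genes with a match include 3 that rose and 1 that fell in the triple knockout. A match is a description of these letters, and binding of the factors was not measured in these data.

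A wider list of 142 trafficking genes outside the 42 (other SNAREs and Rabs, exocyst, clathrin adaptors, retromer and ESCRT, actin and motors) was read from the same fits. Of those tested, 0 of 137 were called in the single knockout, 0 of 136 in the double and 9 of 138 in the triple (6.52%, beside the 9.17% of all genes). At an unadjusted p under 0.05 these counts were 9 (6.57%), 10 (7.35%) and 37 (26.8%), beside 7.61%, 9.53% and 27.0% of all genes. In the triple knockout 5 rose and 4 fell, with a median log2 change of 0.01. The 4 that rose among retromer, ESCRT and sorting nexin genes were Snx2 (0.58), Chmp3 (0.49), Vps4a (0.48) and Snx5 (0.32), where the values are log2 changes, with 4 of 23 measured. Snx2 and Snx5 are sorting nexins that work with retromer, Chmp3 is an ESCRT subunit and Vps4a the ATPase that Lip5 activates. Of 31 Rab genes and effectors Tbc1d4 (-0.87), Rab4b (-0.55) and Rab3a (-0.54) fell. Tbc1d4 encodes AS160, a Rab GTPase-activating protein, and lay at a mean of 28.0 ± 5.11 TPM (SD, n = 3) against 51.4 ± 2.06 (SD, n = 3), adjusted p = 0.0179 by limma. Of 27 actin and motor genes, Gsn, which encodes the actin-severing protein gelsolin, rose and Myh14, a non-muscle myosin heavy chain, fell. None of the 28 SNAREs, 9 exocyst genes or 20 clathrin genes tested was called, with 9, 3 and 3 at an unadjusted p under 0.05 (32.1%, 33.3% and 15.0%, beside 27.0% of all genes).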

How the data were processed

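RNA-seq values of 22 libraries were used. The authors deposited TPM values, a unit recognized by the constant column total, and the submitters' processing notes name STAR and RSEM. Genome build, annotation and depth are not given in the sources used here, so precision rests on replicates. Differences were fitted with limma 3.58.1 in R 4.3.3 (lmFit, eBayes with trend) on log2(TPM + 1). Only genes averaging 1 TPM or more in a comparison entered, with Benjamini-Hochberg adjustment over all genes. All 42 genes passed that filter in each comparison. The script was tested on simulated data. The members and lists were chosen with earlier results of these data known. Genes given by library were those called against own-run control clones, those not called whose groups did not overlap with a log2 change of at least 0.5, and those called in a difference between knockouts. Library values of Ezr, Lip5, Vamp8, Rab5c and Rab11fip2 are examples chosen after their values were seen. Chromosomes are from GENCODE M21 (GRCm38), promoters from RefSeq (GRCm38.p6). Alternatives were another pseudocount, no filter, other scalings, other control sets, run as a covariate, a replicate block, leaving out each library, and, chosen after seeing the data, chromosome medians subtracted. The replicate numbers shared by control clones 1 to 5 and the single knockout did not pair the libraries.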

Additional observations from a re-analysis of the deposited data

Results flagged for a closer look

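Rab5c lay at 27.83 TPM in single knockout replicate 4, against 16.55 to 17.27 TPM in the other 4 libraries of that label. Myh9, which encodes a non-muscle myosin heavy chain, lay at 116.27 TPM in control clone 5, against 161.17 to 178.23 TPM in control clones 1 to 4. These 2 single libraries stood far from the rest of their group among 84 groups of 5 values examined, and chance alone gives such a library in about 1 of 20 groups.

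For 3 genes the change differed between knockouts by limma's test of the difference itself. Mal2 differed by -1.32 on the log2 scale between the triple and the double knockout. Between the triple and the single knockout, Rab27a differed by -1.34 and Myo5b by 1.37.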

How the results depend on the processing

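In the single knockout no member was called in any of the 18 alternatives. In the double knockout the count rose from 0 to 14 (1 higher, 13 lower; 33.3%, beside 32.1% of all genes) against all 11 control clones, and to 4 with run as a covariate (Rab5a, Rab11a and Mal2 higher, Rab27a lower; beside 4.58% of all genes), and it was 0 when any 1 library was left out. In the triple knockout the count of 7 became 2 with no filter on low values and 0 against all 11 control clones (1.03% of all genes), and ran from 0 to 14 when 1 library was left out. With run as a covariate it was 5, beside 8.02% of all genes. Of these, 3 were among the 7 (Rab3d higher, Rab27a and Mal2 lower), and the others were Myo5b (higher) and Akap11 (lower). The count between triple and double became 0 with no filter and with chromosome medians subtracted, and ran from 0 to 1 when 1 library was left out. That between triple and single became 1 with a pseudocount of 0.1 TPM, no filter or median-ratio scaling, and ran from 1 to 3. Against all 11 control clones, which mix run 2 with the others, the median of all genes lay at 0.36, -0.96 and 0.28 in the single, double and triple knockout, and the members' median at 0.49, -1.23 and 0.56. Of the changes that met the naming rule or had an unadjusted p under 0.05, those that turned sign were Stx7 (0.12) and Mal2 (0.31) in the single knockout, Rab5a (-1.24), Rab11b (-0.95) and Mal2 (-1.03) in the double, and Vamp3 (0.17), Stx7 (0.15) and Mal2 (0.20) in the triple.

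With the replicate block, 0 members were called in the single knockout, as without it. Same-numbered libraries had correlations of -0.10 to 0.08. No paired analysis was possible for the double and triple knockout because they share no replicate number with their own-run control clones. Depth is unknown, so levels near 1 TPM, as for Rab27a in the double knockout and Rab11fip2, carry an unknown counting error.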
